A study of Mus musculus with 4 samples.

Results

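SCF, Thrombopoietin, IL-3 and GM-CSF are 4 growth factors of blood cells among the 32 proteins of a serum antibody array, and they were taken by name, ignoring hyphens, spaces and case, from the deposited values of every array. All 4 were found on each of the 4 arrays. The arrays measured serum of male C57BL/6 mice: 2 control sera, which the series describes as vehicle controls, and 2 sera from animals with EAE (experimental autoimmune encephalomyelitis), an inflammation by self-reactive lymphocytes of the brain and spinal cord that is used to model multiple sclerosis. Both groups share strain, sex, serum preparation and a biotin label. The sources used here do not give the age of the mice, the agent that induced EAE, the vehicle, the stage of disease or the number of mice behind a serum. The labels do not say that the 2 sera of a group came from separate mice, so the p-values cover no more than the spread among these 4 samples, and that spread may be technical.

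SCF, the product of Kitl, binds the KIT receptor and keeps haematopoietic stem cells, mast cells and melanocytes alive; stromal and endothelial cells of the bone marrow niche make it without an immune stimulus. Thrombopoietin, the product of Thpo, is made mainly in the liver and drives megakaryocytes and platelets; platelets clear it from blood. IL-3 (Il3) and GM-CSF (Csf2) are inducible cytokines, made above all by activated T cells, and signal through receptors that share the beta-common chain. IL-3 supports early progenitors, mast cells and basophils, and GM-CSF supports and activates granulocytes, monocytes and macrophages. Mice without GM-CSF are known to resist EAE. Csf2 and Il3 follow each other with no other protein-coding gene between them in the RefSeq table of assembly GRCm38.p6, and all 4 symbols were found in it.

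Spots were read as intensity, the brightness of a spot in scanner units. The positive-control rows had intensities of 54201.5 and 53283.5 on control arrays 1 and 2, and 52253.33 and 50210 on EAE arrays 1 and 2. Brightness below means intensity relative to the positive control of the same array, as a percentage or on a log2 scale. It still holds the background of the array support. Normalised signal means the authors' ratio, in which the blank average is 0 and the positive control is 1. A protein was called not above background where it did not exceed the brightest of the array's 3 background rows, which was the single blank spot on each array, at 10916.5, 11167.5, 11355 and 11087 in the same order. The median protein had an intensity of 20392 and 20734 on the control arrays and of 12769 and 12000 on the EAE arrays.

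All 4 factors were lower in EAE serum than in control serum relative to the positive control, and each passed an adjusted p of 0.05 (limma, adjusted over the 32 proteins). Over the whole panel 90.6% of proteins were called lower in the same fit, so 4 of 4 is close to what the panel as a whole gave. The median log2 difference was -0.54 over the 4 factors and -0.54 over all 32 proteins. For each of the 4 factors the EAE sera lay below the control sera without overlap, as they did for 96.9% of the panel. The fit of log2 normalised signal also called all 4 lower, with 93.8% of the panel called lower. On that scale the panel had a median fold of 3.57 lower in EAE. It was 2.88 where proteins not above background on either EAE array were given at their least fold, as for SCF below. The folds of single factors below are to be read beside these. Each array holds a single serum, so a difference of the array as a whole cannot be told apart from a difference of the serum. Within a serum, fewer producing cells and less protein per cell cannot be told apart either.

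**Figure D1:**
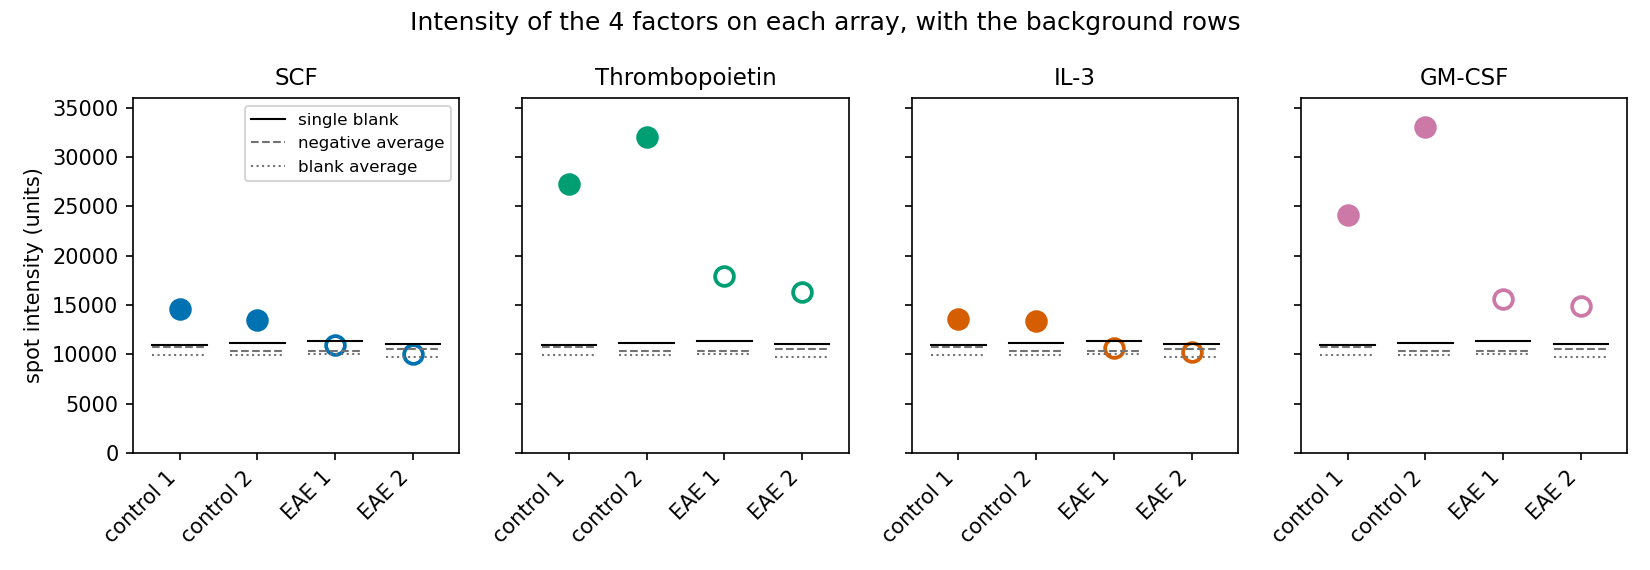
Spot intensity (units) of each factor on the 4 arrays; filled points are control sera, open points EAE sera, and short lines mark the 3 background rows of the same array. Thrombopoietin and GM-CSF stayed above every background row, whereas both EAE points of SCF and IL-3 lay below the single blank.

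Thrombopoietin had intensities of 27310.5 and 32059.5 in control sera 1 and 2 and of 17900 and 16284.5 in EAE sera 1 and 2. The groups did not overlap, and the lowest of the 4 values still lay 5198 units above the brightest background row of its array. Its normalised signal was 0.392 and 0.511 in control serum and 0.187 and 0.162 in EAE serum. The EAE mean was 38.6% of the control mean, and the geometric means differed by 2.57-fold. On the brightness scale the log2 difference was -0.72 ± 0.11 (limma SE), with a 95% interval from -1.02 to -0.43 (adjusted p = 0.0054, limma). The 2 control values differed by 0.26 in log2 brightness and the 2 EAE values by 0.08, both less than the difference between groups. The call held without any single array, with log2 differences from -0.85 to -0.60.

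GM-CSF had intensities of 24144.5 and 33042.5 in the control sera and of 15622.5 and 14941 in the EAE sera. Control serum 2 was the highest, and the EAE sera lay close together. The normalised signal was 0.321 and 0.533 in control serum and 0.133 and 0.128 in EAE serum, a geometric mean 3.16-fold lower in EAE. Its 2 control values stood 0.48 apart in log2 brightness, the second widest control gap of the 32 proteins, whereas its EAE values stood 0.0068 apart. The log2 difference in brightness was -0.82 ± 0.18 (limma SE), with a 95% interval from -1.31 to -0.33 (adjusted p = 0.013, limma). It was -1.06 without control array 1 and -0.58 without control array 2, so its size depended on which control serum was kept. Without EAE array 1 or EAE array 2 the adjusted p was 0.058 and 0.062 (limma), with the remaining EAE serum assumed to vary like the controls.

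SCF had intensities of 14633 and 13455 in the control sera and of 10915.5 and 9977.5 in the EAE sera. It was above background in both control sera, by 3716.5 and 2287.5 units, and in neither EAE serum. On EAE array 1 it was 589.5 units above the negative average, and on EAE array 2 it was below that average as well. Its normalised signal was 0.106 and 0.0818 in control serum and 0.0221 and 0.0056 in EAE serum. The EAE values differed by 3.92-fold between the 2 sera, the widest such ratio of the panel, for a protein within the background. In normalised signal, with the blank average subtracted, SCF was therefore at least 2.35-fold lower in EAE. This is the control mean set against the higher, on each EAE array, of its own value and the lowest value of a protein above background (means of log2 values). In brightness the log2 difference was -0.36 ± 0.07 (limma SE, 95% interval from -0.54 to -0.17, adjusted p = 0.0087). The adjusted p was 0.051 without EAE array 1 and 0.073 without EAE array 2 (limma).

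IL-3 had intensities of 13595 and 13381 in the control sera and of 10677 and 10227.5 in the EAE sera. It was the dimmest protein of control array 1 and the second dimmest of control array 2. It was above background in both control sera and in neither EAE serum, where its distance to the single blank was -678 and -859.5 units. The normalised signal was 0.0826 and 0.0801 in control serum and 0.0165 and 0.0118 in EAE serum. On that scale IL-3 was at least 2.05-fold lower in EAE. The control values lay 0.0018 apart in log2 brightness, the narrowest control gap of the 32 proteins. The log2 difference in brightness was -0.30 ± 0.05 (limma SE, 95% interval from -0.44 to -0.16, adjusted p = 0.0070). The adjusted p was 0.072 without EAE array 1 and 0.073 without EAE array 2 (limma). An exact two-sided permutation test of 2 against 2 sera gave p = 0.333 for each of the 4 factors, the smallest it can give.

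**Figure D2:**
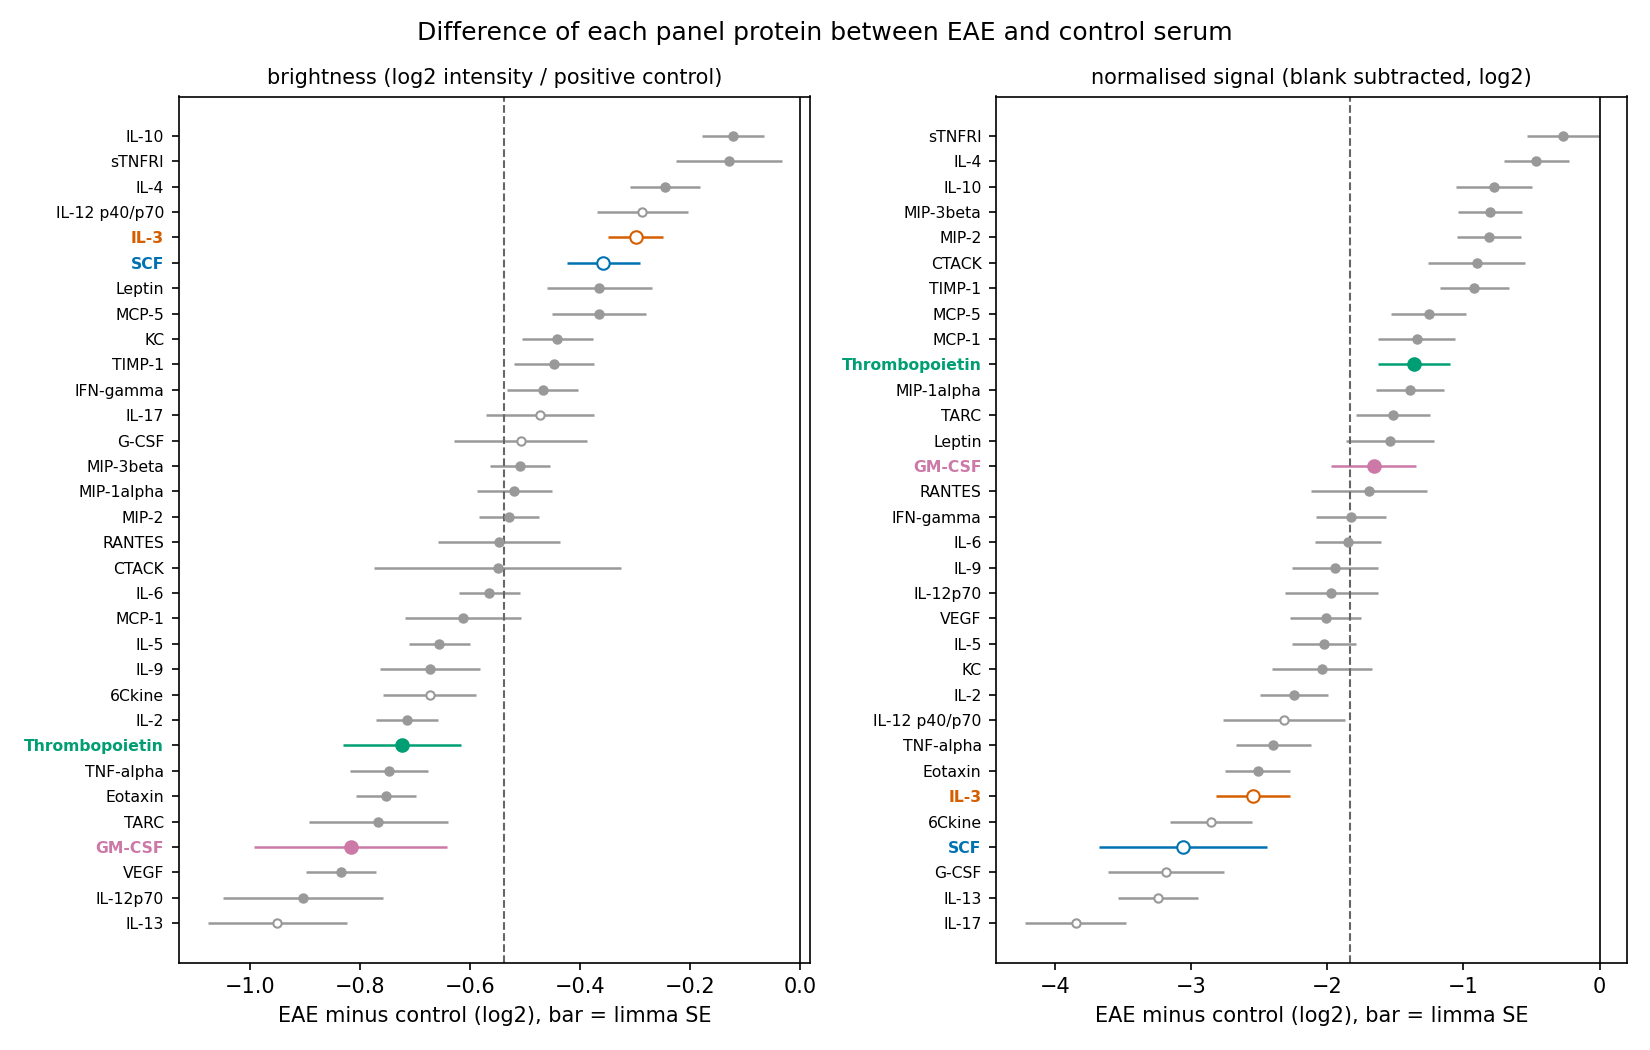
Difference of each of the 32 proteins between EAE and control serum in log2 brightness (left) and log2 normalised signal (right); points are limma estimates, bars are their SE, open points were not above background in EAE serum, and the dashed line is the panel median. In brightness Thrombopoietin and GM-CSF lie on the lower side of the median and IL-3 and SCF on the upper side; in normalised signal the sides are exchanged.

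The size of the difference in brightness is bounded by the distance to the background, and the bound depends on which background row is taken as the floor. An EAE value at the blank average would make SCF 1.36-fold and IL-3 1.30-fold lower in brightness, and a value at the single blank 1.19-fold and 1.15-fold. The measured values, 1.28-fold for SCF and 1.23-fold for IL-3, lay between these limits, so the size of the fall of either protein could not be read in brightness. For Thrombopoietin the limits were 2.86-fold and 2.51-fold and the measured value 1.65-fold. For GM-CSF they were 2.73-fold and 2.40-fold and the measured value 1.76-fold, so both brighter factors kept a distance to either floor.

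Subtracting another background row moved the folds of the brighter factors and ended those of the dimmer ones. Thrombopoietin was 2.57-fold lower with the blank average subtracted, 2.71-fold with the negative average and 2.97-fold with the single blank. GM-CSF was 3.16-fold, 3.41-fold and 3.93-fold lower in the same order. SCF and IL-3 came out below 0 on EAE array 2 with the negative average subtracted, and on both EAE arrays with the single blank subtracted, so no fold could be given there.

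The constitutive factors (SCF and Thrombopoietin) and the inducible beta-common ligands (IL-3 and GM-CSF) were compared within each array, where the scaling of the array cancels. Antibodies differ in how brightly they stain, so a ratio between proteins is no ratio of concentrations, and only its difference between arrays was read. SCF and IL-3, 1 member of each pair, were not above background in EAE, so the pair ratios of the EAE sera are partly ratios of background and cannot show whether the classes responded alike or differently. As measured, the log2 ratio of the inducible to the constitutive pair in brightness was -0.14 and 0.02 for the control sera and -0.11 and -0.04 for the EAE sera. The mean was -0.06 ± 0.11 (SD, n = 2) for the controls and -0.08 ± 0.05 (SD, n = 2) for the EAE sera. In normalised signal the ratio was -0.33 and 0.02 in controls and -0.46 and 0.37 in EAE, where the last value rests on SCF at 0.0056, below the negative average and the single blank. No p is given for these sums over members.

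The ratios within each class have the same limit, since their EAE denominators, IL-3 and SCF, were not above background. In log2 brightness, GM-CSF over IL-3 was 0.83 and 1.30 for the control sera and 0.55 for each EAE serum. Thrombopoietin over SCF was 0.90 and 1.25 for the control sera and 0.71 for each EAE serum. Both ratios were lower in EAE without overlap. In normalised signal both were higher in EAE: GM-CSF over IL-3 was 1.96 and 2.74 in controls against 3.02 and 3.44, and Thrombopoietin over SCF was 1.89 and 2.64 against 3.08 and 4.84. The direction of the shift depended on whether the blank was subtracted, and no shift between the members of a class can be read from it.

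GM-CSF over Thrombopoietin could be read on all 4 arrays, since both were above background throughout. Its log2 ratio in brightness was -0.18 and 0.04 in controls and -0.20 and -0.12 in EAE, which overlapped. In normalised signal it was -0.29 and 0.06 in controls and -0.49 and -0.33 in EAE, which did not overlap, with a difference of -0.30 between the means. The SD of that ratio was 0.25 over the 2 control sera and 0.11 over the 2 EAE sera. The groups thus differed in this ratio by an amount close to the control spread, and their separation was lost without background subtraction. No difference in response between an inducible and a constitutive factor can be read from it. IL-3 over SCF, the dim members of the pairs, was -0.11 and -0.01 in controls and -0.03 and 0.04 in EAE in log2 brightness, with both factors within the background in EAE.

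**Figure D3:**
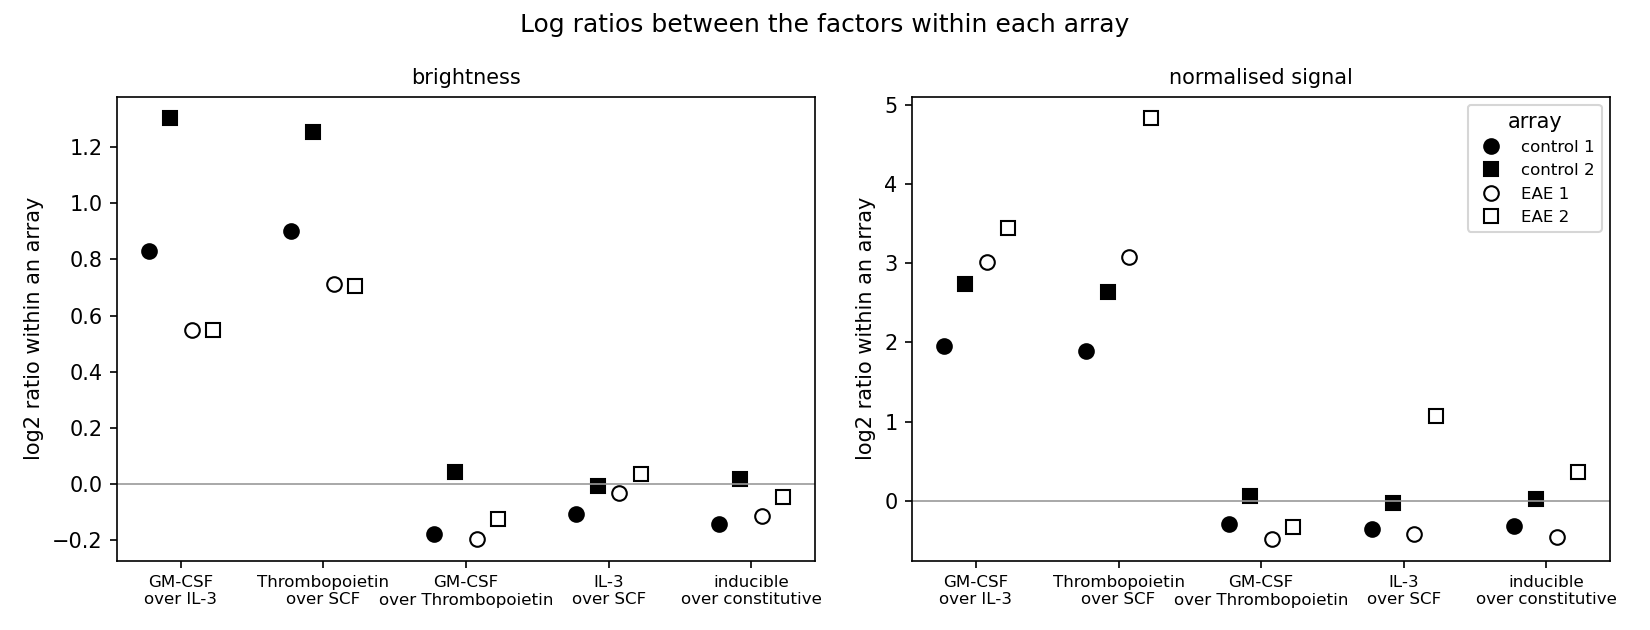
Log2 ratios between the factors within each array, in brightness (left) and normalised signal (right); filled symbols are control arrays, open symbols EAE arrays, circles replicate 1 and squares replicate 2. The EAE values of the inducible over constitutive ratio rest in part on background. The 2 leftmost ratios are lower in EAE on the left and higher on the right, where the EAE values of IL-3 and SCF were not above background.

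Scaling every array to its own median protein removed a log2 shift of -0.66 and left the panel median at 0.12. Relative to that scaling Thrombopoietin differed by -0.06 ± 0.09 (SE, adjusted p = 0.63) and GM-CSF by -0.15 ± 0.14 (SE, adjusted p = 0.43, limma). The 95% intervals were -0.29 to 0.17 for Thrombopoietin and -0.51 to 0.20 for GM-CSF. SCF was at 0.31 ± 0.08 (SE, adjusted p = 0.056) and IL-3 at 0.36 ± 0.07 (SE, adjusted p = 0.022, limma); 12.5% of the panel was called higher in that fit. Neither SCF nor IL-3 was above background in EAE, so these values are no measured rise. Quantile normalization called none of the 4 factors, at unadjusted p-values from 0.066 to 0.43, and called 3.12% of the panel higher (limma). In normalised signal relative to its median all 4 signs turned: Thrombopoietin was at 0.64, GM-CSF at 0.35, SCF at -1.05 and IL-3 at -0.54, with adjusted p-values from 0.067 to 0.38 (limma). That fit called 9.38% of the panel lower and 21.9% higher. None of the 4 factors was thus called apart from the panel in the same direction on both scales.

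The spread between arrays of a group differed among the factors. In log2 brightness control array 2 exceeded control array 1 by 0.48 for GM-CSF and by 0.26 for Thrombopoietin, whereas SCF was lower on control array 2, with a difference of -0.10. Of the 32 proteins 17 were higher on control array 2. EAE array 2 was lower than EAE array 1 for all 4 factors, by 0.0045 to 0.079, and 6 of the 32 proteins were higher there. The median absolute log2 difference over the panel was 0.12 between the controls and 0.06 between the EAE arrays.

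**Figure D4:**
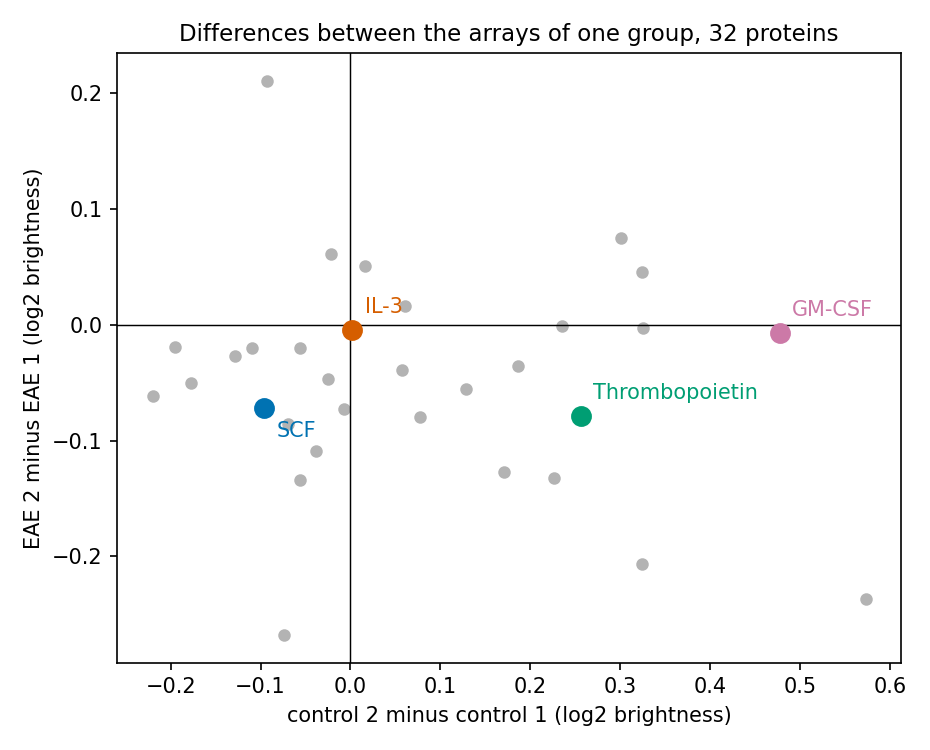
Difference between the 2 control arrays (horizontal) and between the 2 EAE arrays (vertical) in log2 brightness for the 32 proteins; coloured points are the 4 factors. GM-CSF lies far to the right at 0.48 on the control axis and near 0 on the EAE axis, and IL-3 lies near 0 on both.

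Among the 4 factors, the profiles over the 4 arrays paired the dim SCF with the dim IL-3 and Thrombopoietin with GM-CSF, not the members of a class. The EAE values of SCF and IL-3 in this comparison were not above background. Likeness was the root-mean-square distance between log2 brightness values over the 4 arrays, each protein centred on its own mean. SCF and IL-3 were 0.051 apart and Thrombopoietin and GM-CSF 0.095, against 0.22 for SCF and Thrombopoietin and 0.31 for IL-3 and GM-CSF. On the whole panel the proteins nearest to SCF were MCP-5 (0.040) and Leptin (0.044), and those nearest to Thrombopoietin were 6Ckine (0.039) and TARC (0.042). Nearest to IL-3 were IL-4 (0.046) and SCF (0.051), and nearest to GM-CSF were TARC (0.059) and IL-13 (0.088). The median distance to the panel was 0.14 to 0.22. The distances come from 4 arrays and follow the change of a spot in brightness, which the background bounds for dim proteins.

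IL-5, the third ligand of the beta-common chain and the growth factor of eosinophils, was measured as well. Its normalised signal was 0.228 and 0.245 in control serum and 0.0582 and 0.0579 in EAE serum, above background on each array. It was 4.07-fold lower in EAE, and its log2 brightness differed by -0.66 ± 0.06 (SE, adjusted p = 0.0024, limma). Of the 3 beta-common ligands on the panel, GM-CSF and IL-5 could be quantified in EAE serum and IL-3 could not.

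Of 8 other growth factors of blood cells named for the comparison, 3 were on the panel and all 3 passed the threshold as lower in EAE serum, with a median log2 brightness difference of -0.56. G-CSF, which drives neutrophil production, had normalised signals of 0.0962 and 0.168 in controls and of 0.0101 and 0.0194 in EAE. Like SCF and IL-3 it was not above background in EAE, and in normalised signal it was at least 3.21-fold lower. IL-6, which also promotes platelet production, had normalised signals of 0.212 and 0.203 against 0.0534 and 0.0623, and IL-9, a growth factor of mast cells, of 0.232 and 0.287 against 0.084 and 0.0533. Neither overlapped between the groups. The panel median was -0.54. In the same fit 90.6% of the panel was called lower, and 96.9% of the panel did not overlap, so the counts of this list are close to those of the panel.

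Platelets release RANTES, VEGF and TIMP-1 when blood clots, and these 3 were read beside Thrombopoietin, which platelets clear from blood. They were the 3 of 6 named platelet proteins that were on the panel, and all 3 passed the threshold as lower in EAE, with a median log2 brightness difference of -0.55. VEGF had normalised signals of 0.364 and 0.334 in controls and of 0.0987 and 0.0757 in EAE. RANTES had 0.241 and 0.215 against 0.108 and 0.0458, and TIMP-1 had 0.349 and 0.325 against 0.20 and 0.158. The 3 proteins moved in the same direction as Thrombopoietin, as 90.6% of the panel did past the threshold, and their part in its difference was not tested. Under the scaling to the panel median the list medians were 0.10 for the growth factors and 0.12 for the platelet proteins, with the panel at 0.12. In normalised signal relative to its median, TIMP-1 was called higher at 1.09 (adjusted p = 0.0082, limma), as was 21.9% of the panel. RANTES was at 0.31 and VEGF at -0.0035 in that fit, and neither was called.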

How the data were processed

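Values of 32 proteins and 4 rows of control spots were deposited for each array as intensity, per the file headers, with positive, blank and negative rows averaged before deposit. The sources used here do not give the imaging and spot-finding steps. The authors also deposited a ratio per protein and array. Recomputing it as intensity minus blank average, over positive minus blank average, left a largest deviation of 1.2e-07.

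From the intensities, log2(intensity / positive average) was fitted over all 32 proteins in a model of group alone (lmFit and eBayes of limma 3.58.1 in R 4.3.3, two-sided). P-values were adjusted by Benjamini-Hochberg over the 32, with a threshold of 0.05. The fit was run on simulated data with independent noise for each protein. Those data held no shift shared by a whole array, so the run does not cover such a shift. Values named are those of the 4 factors, the fixed lists (beta-common ligand, growth factors, platelet-released) and the 2 nearest proteins of each factor. In addition sTNFRI, which is in none of these, is named for its place beside Thrombopoietin in the brightness order. The members, lists and background cutoff were chosen with earlier results of these data known. The deposited values carry no depth, and the number of arrays limits precision. Alternatives covered background, scaling, offset, dim proteins, the prior, pairing and single arrays.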

Additional observations from a re-analysis of the deposited data

How the results depend on the processing

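Over the 4 factors, 62 results under other settings gave 44 with the same direction and call, 13 that lost the call and 5 that turned. Median scaling gave 0.31 for SCF, 0.36 for IL-3, -0.061 for Thrombopoietin and -0.15 for GM-CSF, with 1 factor called (higher) and 4 panel proteins (0 lower). Quantile normalization gave -0.069 for SCF, 0.042 for IL-3, -0.18 for Thrombopoietin and -0.16 for GM-CSF, with 0 factors called (limma) and 1 panel protein (higher); at an unadjusted threshold of 0.05 it also called 0 factors. Normalised signal relative to its median gave -1.05, -0.54, 0.64 and 0.35 in the same order, with 0 factors and 10 panel proteins called (3 lower). These scalings set the arrays equal by construction. The settings of the prior and the pairing, the panel without dim proteins and the panel without IL-4 and IL-10 keep the main estimate. Among the 62 results they could therefore change the call but not the direction. Of the results that turned, only IL-3 under median scaling was called. Leaving out proteins not above background, or subtracting the negative average or the single blank, left 2 factors, Thrombopoietin and GM-CSF, both called; the last 2 settings, the crossed pairing, the panel without IL-4 and IL-10 and the scaled normalised signal were chosen after seeing the data. With 1 array left out, the differences ranged from -0.41 to -0.31 for SCF, -0.85 to -0.60 for Thrombopoietin, -0.301 to -0.297 for IL-3 and -1.06 to -0.58 for GM-CSF, and the counts from 1 to 4 factors and from 19 to 30 proteins. Thrombopoietin was the factor called in each case. The inducible minus constitutive difference ranged from -0.10 to 0.06 there, and was 0.11 in normalised signal, with SCF and IL-3 within the background in EAE. Deviations of same-numbered arrays correlated at -0.16 over the 32 proteins. The replicate block called 4 factors and 30 proteins and changed no factor's call; with crossed numbers the counts were also 4 and 30. Signal over background limits SCF and IL-3.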

Other observations

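The place of each factor in the brightness order of the 32 proteins of an array is free of any scaling of that array. Thrombopoietin ranked 3 and 5 in the control sera and 7 and 6 in the EAE sera. The share of the panel whose ranks separated in this way was not counted, so no result about Thrombopoietin can be read from its ranks. IL-4 and sTNFRI had means of 48.0% and 44.9% of the positive control in control serum, below Thrombopoietin at 55.3%. In EAE serum they had 40.5% and 41.2%, above Thrombopoietin at 33.3%. TIMP-1 had means of 46.0% in control and 33.7% in EAE serum, and was brighter than Thrombopoietin on EAE array 1 only. In brightness scaled to the panel median, Thrombopoietin differed by -0.06 ± 0.09 (SE), with the panel median at 0.12. In normalised signal relative to its median, Thrombopoietin was at 0.64. Neither fit called it, so whether Thrombopoietin fell apart from the panel cannot be read from these values or from the ranks. GM-CSF ranked 11 on control array 1, 4 on control array 2, and 11 and 9 on the EAE arrays, so its rank on control array 1 was that of EAE array 1. SCF ranked 27 and 30 and IL-3 ranked 32 and 31 in controls. Neither was above background in EAE, where ranks have no order and are not given.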
